A study of Homo sapiens with 6 samples.

Results

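The genes described here are all rows of the deposited gene table whose name is EIF, a digit of 1 to 6 and further capital letters or digits, so that the eIF2 kinases and the 4E-binding proteins are included. The rule took 56 of 36601 rows and used no measured value. RNA was sequenced from U2OS cells, a human osteosarcoma line, in which doxycycline induced TDP-43-mNLS-Clover, a Clover-tagged TDP-43 labelled mNLS. In the aggregate group, cells were transfected with 50 nM fibril seeds of the recombinant TDP-43 low-complexity domain, and image-based sorting collected those with Clover aggregates 48 hours later. In the diffuse group, cells were mock transfected with the protein storage buffer, and sorting collected those with diffuse Clover signal. Both groups carried the transgene and received doxycycline, each holds 3 libraries from separate transfections, and fibril exposure and sort gate change together with the group, so that their shares in a difference cannot be told apart.

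Translation initiation is the stage of protein synthesis at which a ribosome is placed at the start codon of a messenger RNA. The factor eIF2, charged with GTP, carries the initiator transfer RNA to the small ribosomal subunit together with eIF1, eIF1A, eIF3 and eIF5, and the cap-binding complex of eIF4E, eIF4G and the helicase eIF4A brings in the message. Cells set the rate mainly at a pair of points: the stress kinases phosphorylate eIF2, which then blocks its own exchange factor eIF2B, and the 4E-binding proteins hold eIF4E away from eIF4G.

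Total gene counts were 41528336 to 46863013 in the aggregate libraries and 40279084 to 43091428 in the diffuse libraries, and 1 count was worth 0.0212 to 0.0251 CPM (counts scaled to a library total of 1e6). TARDBP, the gene of TDP-43, had 2534 to 2617 CPM in aggregate cells, against 7267 to 7685 CPM in diffuse cells, a single row that does not separate transgene from native transcripts. As a check of the label, the mesenchymal genes VIM, COL1A1, SPARC and FN1 had 749.7 CPM or more in every library, while SP7 was at 0 and BGLAP at no more than 0.905 CPM. Between these, RUNX2 had 33.3 to 52.8 CPM and ALPL 6.19 to 17.3 CPM over all libraries. COL1A2 had 6.67 to 8.11 CPM in aggregate cells and 23.4 to 25.7 CPM in diffuse cells. Of 9 mesenchymal markers, 2 rose and 5 fell, with summed levels of 5239 to 5692 CPM in aggregate cells and 8050 to 8409 CPM in diffuse cells. The 5 epithelial markers summed to 319.8 to 323 CPM in aggregate cells and 687 to 749 CPM in diffuse cells, mostly KRT8 and KRT18, and 3 of them fell. The 4 neuronal markers, 1 up and 3 down, summed to 158 to 164 CPM in aggregate cells and 185 to 205 CPM in diffuse cells. The 4 blood markers summed to 12.8 to 15.9 CPM in aggregate cells and 3.14 to 3.93 CPM in diffuse cells, mostly CD68, with PTPRC at no more than 0.401 CPM and CD14 at no more than 0.143 CPM. The 3 endothelial markers summed to 1.47 to 2.20 CPM in aggregate cells and 1.71 to 2.28 CPM in diffuse cells. Their part in the results was not tested, and in bulk RNA fewer cells with a transcript and less transcript per cell cannot be told apart.

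Most initiation factor genes were higher in aggregate cells. Of the 54 genes tested, 38 rose, 7 fell and 9 did not pass (edgeR quasi-likelihood F test, adjusted p under 0.05 over all 17839 genes tested). That is 83.3% called, beside a background of 75.4% of all genes tested, so the share called is close to that of the table as a whole. The direction was uneven: 70.4% of the members rose, where 37.8% of all tested genes did, and 13% fell, where 37.6% of all did. The median log2 fold change was 0.39 over the members and 0.01 over all tested genes. In 38 members every aggregate library lay above every diffuse library and in 6 below, or 44 of 54, beside 76.2% of all tested genes. Over all tested genes these shares were 38.2% above and 38% below. The classes that follow are read against the same shares. EIF1AY, a Y-linked copy of EIF1AX, and EIF4E1B, a germline form of the cap-binding protein, had at most 1 count over all 6 libraries and were not tested.

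**Figure D1:**
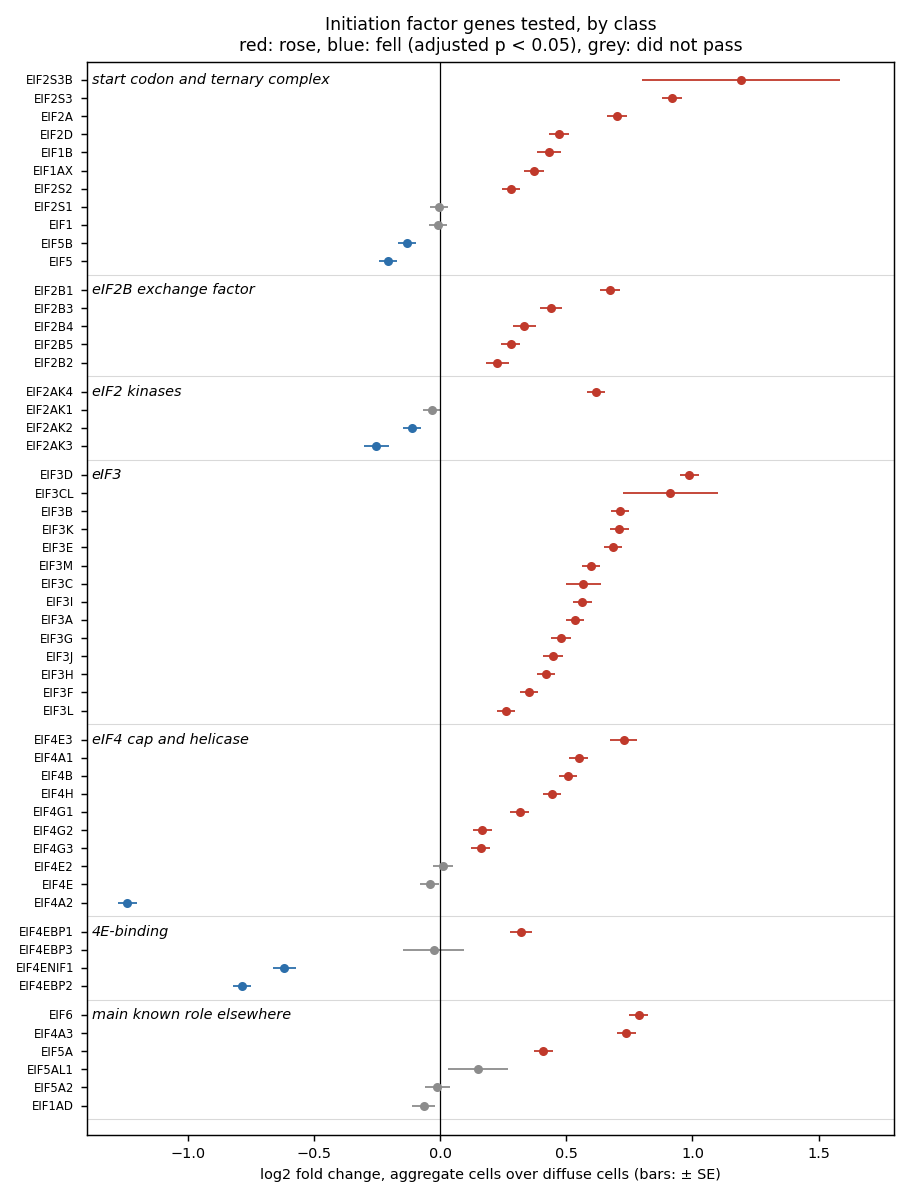
Log2 fold change (horizontal axis, aggregate over diffuse cells) of the 54 initiation factor genes tested, grouped by role; points are fitted values and bars ± SE from 3 libraries a group. All 14 eIF3 genes and all 5 eIF2B genes lie right of 0, and EIF4A2 at -1.24 is farthest to the left.

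Among the factors that select the start codon and deliver the initiator transfer RNA, 7 of 11 tested genes rose, 2 fell and 2 did not pass, with a median log2 fold change of 0.37. EIF2S3 encodes the gamma subunit of eIF2, which binds GTP and the initiator transfer RNA. It stood at 98.8, 93.9 and 95.5 CPM in aggregate libraries 1 to 3, against 47.9, 52.5 and 51.98 CPM in diffuse libraries 1 to 3. All aggregate libraries were far above all diffuse libraries, with a log2 fold change of 0.92 ± 0.04 (SE; edgeR adjusted p = 2.58e-38). The other subunits of the same trimer had smaller fitted changes. EIF2S2, the beta subunit, stood at 311, 319 and 323 CPM in aggregate cells and 259, 259 and 267 CPM in diffuse cells, a log2 fold change of 0.28 ± 0.04, and EIF2S1, the alpha subunit that the stress kinases phosphorylate, had a fitted value of -0.0031 (edgeR adjusted p = 0.940) from 289, 282 and 295 CPM in aggregate cells against 289, 284 and 295 CPM in diffuse cells. Against a minimum fold of 1.2, EIF2S2 no longer passed. With a correction for GC content and gene length, EIF2S1 was called higher, at 0.11 (adjusted p = 0.00236). Scaled by exon length, EIF2S3 made up 13.95 ± 0.444% of the summed level of the 3 subunits in aggregate cells and 8.91 ± 0.396% in diffuse cells (SD, n = 3 each, no test made). It was the lowest of the 3 by this measure in every library.

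EIF2S3B, an autosomal copy of EIF2S3, had the largest fitted rise, 1.19 ± 0.39 on the log2 scale, from only 10 to 20 counts a library in aggregate cells and 6 a library in diffuse cells. Its call was lost in DESeq2 (adjusted p = 0.0764) and without aggregate library 2 (edgeR adjusted p = 0.0548), and its reads may be shared with EIF2S3. EIF2A, a separate factor that can deliver the initiator transfer RNA to some messages, rose to 82.1, 82.8 and 85.3 CPM in aggregate cells, against 50.6, 51.1 and 52.1 CPM in diffuse cells (0.70 ± 0.04 on the log2 scale, edgeR adjusted p = 1.98e-30). EIF2D, which acts in alternative initiation and ribosome recycling, EIF1B, a paralog of the start codon scanning factor EIF1, and EIF1AX, which encodes eIF1A, rose with log2 fold changes of 0.47, 0.43 and 0.37. EIF1 itself did not pass, at 455, 459.6 and 476 CPM in aggregate cells and 475, 458 and 465 CPM in diffuse cells (edgeR adjusted p = 0.853), and the groups overlapped.

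A pair of genes in this class fell. EIF5, which makes eIF2 hydrolyse its GTP once the start codon is found, stood at 322, 333 and 339.5 CPM in aggregate cells and 388, 371 and 389.5 CPM in diffuse cells, with no overlap (-0.21 ± 0.04 on the log2 scale, edgeR adjusted p = 2.53e-07). EIF5B, which joins the large ribosomal subunit, gave 371, 380.1 and 409 CPM in aggregate cells and 405, 434 and 431 CPM in diffuse cells. Aggregate library 3 was above diffuse library 1, so the EIF5B groups overlapped although the test was passed (-0.13 ± 0.04, edgeR adjusted p = 0.00115), and after a correction for GC content and gene length the value was 0.03, not called. Neither EIF5 nor EIF5B passed against a minimum fold of 1.2.

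The genes of all 5 subunits of eIF2B, the exchange factor that recharges eIF2 with GTP, rose, without overlap between the groups. Of all tested genes, 38.2% lay higher in aggregate cells without overlap. EIF2B1, the alpha subunit of its regulatory core, led with 76.5, 76.01 and 73.1 CPM in aggregate cells and 46.4, 47.6 and 47.6 CPM in diffuse cells, a log2 fold change of 0.67 ± 0.04 (edgeR adjusted p = 1.19e-28). EIF2B3, the gamma subunit, stood at 50.1, 50.6 and 50.9 CPM in aggregate cells and 37.98, 35.4 and 38.3 CPM in diffuse cells (0.44 ± 0.04, adjusted p = 3.37e-16). EIF2B5, the catalytic epsilon subunit, changed less in proportion, at 77.8, 79.1 and 77.7 CPM in aggregate cells and 66.1, 61.2 and 65.99 CPM in diffuse cells (0.28 ± 0.04, adjusted p = 5.22e-10). The delta subunit EIF2B4 and the beta subunit EIF2B2, partners of EIF2B1 in the regulatory core, had log2 fold changes of 0.33 ± 0.05 (adjusted p = 1.74e-10) and 0.23 ± 0.05 (adjusted p = 4.60e-06). Against a minimum fold of 1.2, EIF2B2 and EIF2B5 no longer passed.

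The 4 kinases that phosphorylate eIF2 did not move together. EIF2AK4, known as GCN2 and activated by uncharged transfer RNA and stalled ribosomes, stood at 144, 143 and 142 CPM in aggregate cells and 93.4, 90.98 and 94.9 CPM in diffuse cells. The libraries of each group lay close together and the groups far apart, with a log2 fold change of 0.62 ± 0.04 (edgeR adjusted p = 4.15e-29). EIF2AK3, known as PERK, the kinase of endoplasmic reticulum stress, fell to 24.3, 22.4 and 23.4 CPM in aggregate cells, against 26.8, 28.2 and 28.4 CPM in diffuse cells (-0.25 ± 0.05, adjusted p = 4.19e-06). EIF2AK2, known as PKR and activated by double-stranded RNA, had 133, 132 and 139.9 CPM in aggregate cells and 145, 147 and 145 CPM in diffuse cells (-0.11 ± 0.04, adjusted p = 0.00378). Neither EIF2AK3 nor EIF2AK2 passed against a minimum fold of 1.2. That small fall in EIF2AK2 was not called with upper-quartile scaling (adjusted p = 0.0718) and turned into a called rise of 0.07 with the correction for GC content and gene length (edgeR adjusted p = 0.0342). Its spliced reads also leaned the other way, with 0.10 as the log2 ratio of aggregate to diffuse cells. EIF2AK1, known as HRI and activated by low heme and mitochondrial stress, did not pass at 274, 279 and 282 CPM in aggregate cells and 283, 279 and 291 CPM in diffuse cells (adjusted p = 0.402).

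Scaled by exon length, EIF2AK1 supplied most of the kinase transcript in every library, 63.5 ± 0.401% in aggregate cells and 65.97 ± 0.366% in diffuse cells (SD, n = 3 each). EIF2AK4 accounted for 15.1 ± 0.284% in aggregate cells and 10.02 ± 0.0949% in diffuse cells, and EIF2AK3 for 5.44 ± 0.241% in aggregate cells and 6.58 ± 0.193% in diffuse cells. The summed length-scaled level of the 4 kinases was 78.9 ± 0.923 in aggregate cells and 77.7 ± 1.26 in diffuse cells, in CPM per kilobase of exon, a difference smaller than the range within either group. Without length scaling, the summed CPM of the 4 kinases was higher in every aggregate library than in every diffuse library.

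**Figure D2:**
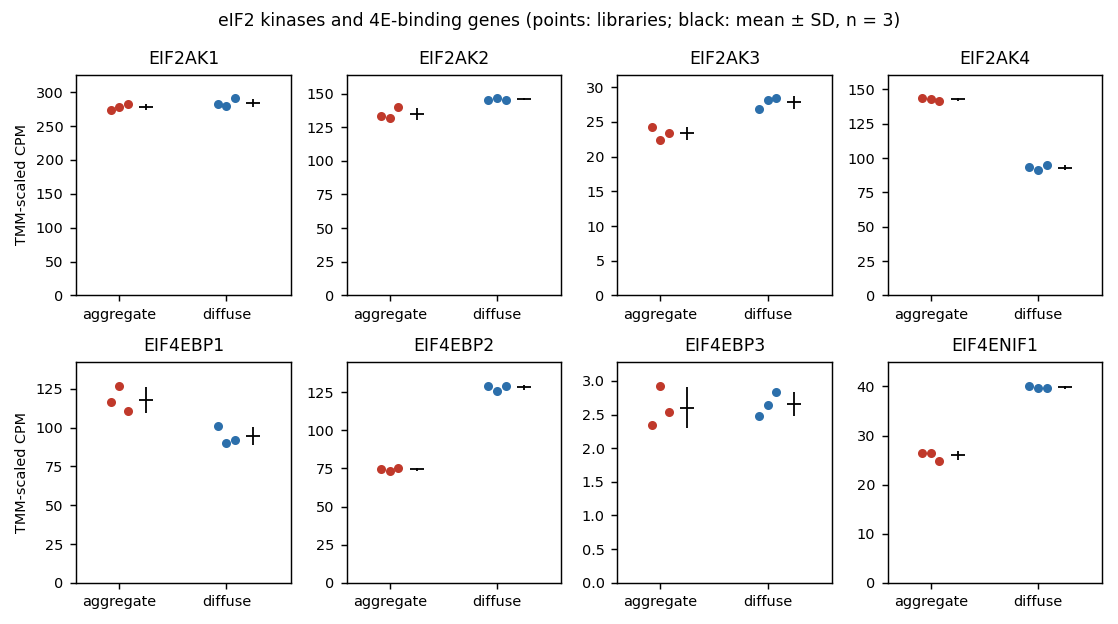
TMM-scaled CPM (vertical axis, from 0) of the 4 eIF2 kinase genes and the 4 genes of eIF4E-binding proteins in each library; black marks are the mean ± SD, n = 3. EIF2AK4 is higher in aggregate cells, EIF4EBP2 and EIF4ENIF1 are lower, and EIF2AK1 and EIF4EBP3 overlap between the groups.

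The genes of the scaffold complex eIF3, which holds the small subunit and links it to eIF4G, shared a direction, as those of eIF2B did. All 14 rose, without overlap between the groups, with log2 fold changes of 0.26 to 0.99 and a median of 0.57. Of all tested genes, 37.8% were called higher and 38.2% lay higher without overlap. EIF3D, a subunit that can itself bind the cap of certain messages, stood at 253, 269 and 261 CPM in aggregate cells and 135, 127 and 132 CPM in diffuse cells (0.99 ± 0.04 on the log2 scale, edgeR adjusted p = 1.08e-43). EIF3B, part of the conserved core, had 454, 454 and 464 CPM in aggregate cells and 279, 272 and 287 CPM in diffuse cells (0.71 ± 0.04, adjusted p = 1.84e-33). EIF3K, one of the small peripheral subunits, had 147, 153 and 146 CPM in aggregate cells and 93.3, 85.6 and 93.8 CPM in diffuse cells (0.71 ± 0.04, adjusted p = 3.88e-32). EIF3E, which with EIF3D contacts eIF4G, stood at 646, 623 and 659.5 CPM in aggregate cells and 403, 388 and 409 CPM in diffuse cells (0.68 ± 0.04). Scaled by exon length, EIF3I, a ring-shaped core subunit, had the highest level of all members, 204 ± 4.60 CPM per kilobase in aggregate cells and 138 ± 8.29 in diffuse cells (SD, n = 3 each).

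Among the other eIF3 genes, EIF3M, EIF3I, EIF3A, EIF3G, EIF3J, EIF3H and EIF3F had log2 fold changes of 0.60, 0.56, 0.53, 0.48, 0.45, 0.42 and 0.35, each with SE of 0.04. The smallest rise was that of EIF3L, at 256, 256 and 253 CPM in aggregate cells and 223, 199 and 217 CPM in diffuse cells, which no longer passed against a minimum fold of 1.2. EIF3C and EIF3CL are near-identical copies on chromosome 16, and their gene counts are uncertain. EIF3C had 685 to 866 counts in aggregate libraries and 478 to 566 in diffuse libraries, while the spliced reads counted at its introns numbered 13862 to 17229 in aggregate libraries and 8869 to 9901 in diffuse libraries. By those spliced reads, which the copies may share, EIF3C had a log2 ratio of 0.50, against 0.57 from gene counts, and EIF3CL rested on 53 to 81 gene counts in aggregate libraries and 30 to 37 in diffuse libraries (0.91 ± 0.19).

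**Figure D3:**
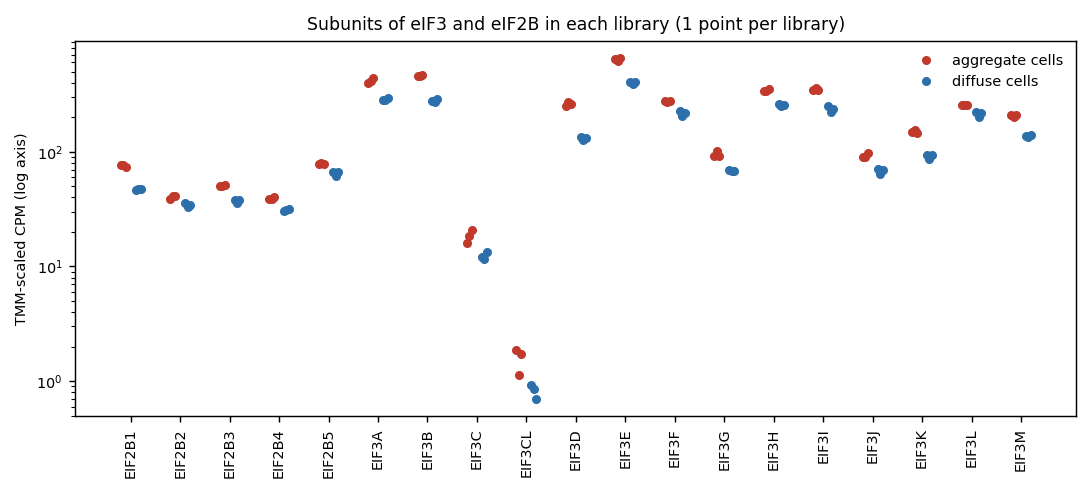
TMM-scaled CPM (vertical log axis) of the eIF2B and eIF3 subunit genes, 1 point for each of the 3 aggregate libraries (left in each pair) and 3 diffuse libraries (right). In every one of the 19 genes the aggregate points lie above the diffuse points.

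In the cap and helicase class, 7 of 10 tested genes rose, 1 fell and 2 did not pass. The fall was the largest of any member. EIF4A2, which encodes an eIF4A helicase that unwinds the start of a message, stood at 219.7, 222 and 214 CPM in aggregate cells, against 504, 521 and 522 CPM in diffuse cells. Every aggregate library was far below every diffuse library, and the log2 fold change was -1.24 ± 0.04 (edgeR adjusted p = 2.43e-51). Its paralog EIF4A1 moved the other way, with 789, 778 and 813 CPM in aggregate cells and 554, 525 and 548 CPM in diffuse cells (0.55 ± 0.04, adjusted p = 5.55e-25). Scaled by exon length, EIF4A2 made up 19.3 ± 0.656% of eIF4A transcript in aggregate cells and 45.2 ± 1.09% in diffuse cells (SD, n = 3 each, no test made). The summed eIF4A level, in CPM per kilobase of exon, was 185 ± 2.68 in aggregate cells and 186 ± 2.34 in diffuse cells. The groups' sums overlapped while the shares did not. That overlap depends on the exon lengths used, 5316 bases for EIF4A1 and 6133 for EIF4A2, which count every annotated exon. Without length scaling, the summed CPM of EIF4A1 and EIF4A2 was lower in every aggregate library than in every diffuse library.

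The cap-binding genes also diverged. EIF4E3, a divergent cap-binding paralog, rose to 25.8, 24.5 and 27.2 CPM in aggregate cells, against 15.1, 15.5 and 16.2 CPM in diffuse cells (0.73 ± 0.05, edgeR adjusted p = 2.90e-22). EIF4E, the main cap-binding protein, had 82.2, 79.2 and 81.1 CPM in aggregate cells and 85.8, 80.03 and 83.6 CPM in diffuse cells (-0.041, adjusted p = 0.331), and EIF4E2, a cap-binding protein tied to translational repression, had 64.6, 59.9 and 59.9 CPM in aggregate cells and 63.1, 60.3 and 59.6 CPM in diffuse cells (0.01, adjusted p = 0.822). Neither passed, and each overlapped between the groups, although both were called higher after the correction for GC content and gene length. EIF4E3 was the smallest of the 3 by length-scaled level, at 14.4 ± 0.715% of their sum in aggregate cells and 9.14 ± 0.489% in diffuse cells. EIF4B and EIF4H, which stimulate the helicase, rose with log2 fold changes of 0.51 and 0.44. The scaffolds EIF4G1, EIF4G2 and EIF4G3 rose less, by 0.32, 0.17 and 0.16, and EIF4G2 and EIF4G3 no longer passed against a minimum fold of 1.2. EIF4G2, which lacks the eIF4E-binding region, had 1007, 1038 and 1059 CPM in aggregate cells and 937, 902 and 925 CPM in diffuse cells.

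**Figure D4:**
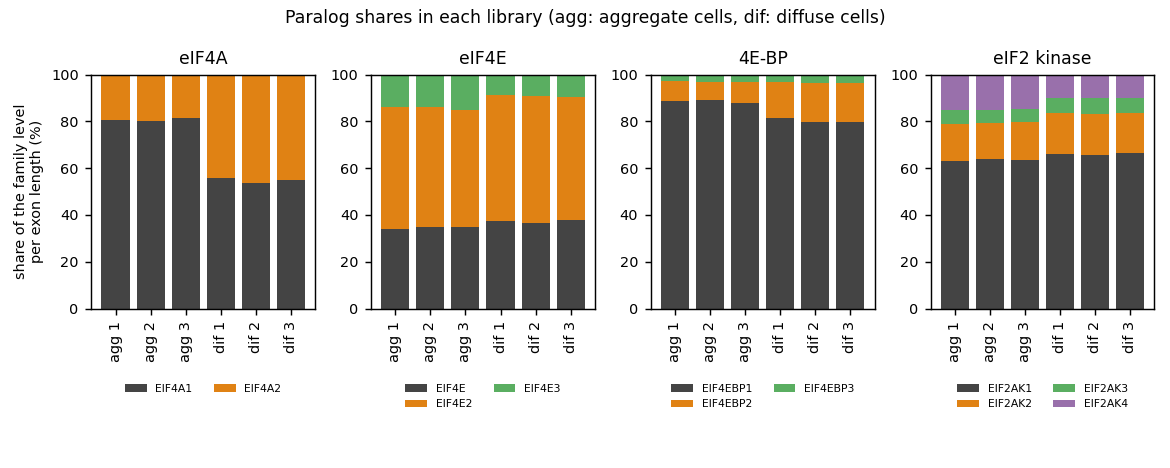
Share of each paralog in the length-scaled level of its family (vertical axis, percent, stacked to 100) in each library. EIF4A2 takes 18.6% to 19.8% of the eIF4A level in aggregate cells and 44.1% to 46.3% in diffuse cells. Every paralog drawn except EIF4EBP3 differs between the groups without overlap. Shares sum to 100 in each family, so a change in any paralog moves the others.

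Of the 4 genes of eIF4E-binding proteins, 2 fell, 1 rose and 1 did not pass. EIF4EBP2, a repressor that competes with eIF4G for eIF4E until mTOR phosphorylates it, stood at 74.8, 73.1 and 75.3 CPM in aggregate cells and 129, 126 and 129 CPM in diffuse cells (-0.79 ± 0.04, edgeR adjusted p = 6.64e-36). EIF4ENIF1, also called 4E-T, which carries eIF4E into the nucleus and into P-bodies, had 26.5, 26.5 and 24.8 CPM in aggregate cells and 40.2, 39.6 and 39.6 CPM in diffuse cells (-0.62 ± 0.05, adjusted p = 2.73e-22). Both falls were without overlap. EIF4EBP1, the paralog of EIF4EBP2 with the same mode of action, moved the other way, at 116, 127 and 111 CPM in aggregate cells and 101, 90.5 and 92.2 CPM in diffuse cells (0.32 ± 0.04, adjusted p = 6.74e-08), and lost its call against a minimum fold of 1.2. EIF4EBP3 was low, at 2.34, 2.93 and 2.53 CPM in aggregate cells and 2.48, 2.64 and 2.84 CPM in diffuse cells, and did not pass (adjusted p = 0.859). By length-scaled level EIF4EBP1 was the main form in every library, and EIF4EBP2 made up 8.29 ± 0.654% of the sum of the 3 in aggregate cells and 16.1 ± 0.618% in diffuse cells.

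A last 6 genes carry an initiation factor name but act mainly elsewhere, and 3 of them rose while 3 did not pass. EIF6, which keeps the large ribosomal subunit from joining too early and helps to make it, had 196, 201 and 191 CPM in aggregate cells and 122, 107 and 111 CPM in diffuse cells (0.79 ± 0.04, edgeR adjusted p = 3.45e-30). EIF4A3, a core protein of the exon junction complex, had 112, 109 and 112 CPM in aggregate cells and 67.1, 65.6 and 67.1 CPM in diffuse cells (0.74 ± 0.04, adjusted p = 2.08e-33). EIF5A, the hypusine-bearing factor that helps ribosomes through stalling sequences, rose with a log2 fold change of 0.41 ± 0.04 (adjusted p = 1.68e-16). Its paralog EIF5A2, the copy EIF5AL1, whose reads may be shared with EIF5A, and EIF1AD did not pass, with values of -0.01, 0.15 and -0.065 and adjusted p of 0.854, 0.246 and 0.185. EIF1AD was called as lower without diffuse library 1 (edgeR adjusted p = 0.0399) and, with the correction for GC content and gene length, EIF5A2 was called higher at 0.13 (adjusted p = 0.00899) and EIF1AD lower at -0.11 (adjusted p = 0.0211).

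Spliced reads at clustered introns give a second, partial count from the same libraries. Their number was 1.91% of the gene counts for EIF4A3, while 19 members had more spliced reads than gene counts. The called members EIF4EBP2 and EIF2S3B had none in this count. Of the 43 called members with spliced reads in the deposited intron table, 42 had the same sign by both counts, EIF2AK2 being the exception. EIF3C and EIF3CL, which may share spliced reads, are both among them. The median log2 ratio of spliced reads over the 51 members present was 0.30, with no value over all genes to set beside it. That median is the ratio of EIF4A3, which had 53 to 104 spliced reads a library. EIF4A2, which overlaps RFC4 on the opposite strand, had a ratio of -1.55 by spliced reads, farther from 0 than the -1.24 from gene counts. The strand setting of the gene counter is not given in the sources used here, so gene counts of members that overlap an antisense gene are uncertain. Across the 54 tested members, which share the same 6 libraries, exon length had a Pearson's r of -0.22 and a Spearman's rho of -0.26 with the log2 fold change, and GC content 0.19 and 0.18. Over all tested genes with annotation the values were -0.14 and -0.17 for exon length, and 0.04 and 0.08 for GC content.

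Few of the introns inside these genes changed their relative use. The introns had been clustered by shared splice sites with LeafCutter, which gave 188 testable clusters in 51 member genes. Of these 12, in 11 genes, were called (edgeR diffSpliceDGE with Simes p-values, adjusted p under 0.05 over all 35898 clusters tested), or 6.38% beside a background of 5.02%, a share near the background. Among 759 introns in those clusters, 22 were called as used less relative to the rest of their cluster in aggregate cells and 0 as used more, beside 1.44% called less and 0.614% called more over all introns tested. At an unadjusted p under 0.05 the counts from diffSpliceDGE were 83 used less, or 10.9%, and 15 used more, or 1.98%, beside 6.79% and 3.14% over all introns tested. Of the 22, 16 lay in called clusters and 11 held under 1 percent of their cluster's reads in both groups. Only the EIF4H cluster had an intron that moved by 5 points or more among the 12 called.

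Alternative exons were read as inclusion, the mean of the reads at the 2 flanking introns as a share of that mean plus the skipping reads. In EIF4A2, a 140-base exon at chr3:186784962-186785101 (hg38, plus strand) was included at 72.1, 66.1 and 68.1% in aggregate libraries 1 to 3, against 59.05, 58.9 and 59.5% in diffuse libraries 1 to 3. All aggregate libraries were higher, with means of 68.8 ± 3.03% in aggregate cells and 59.2 ± 0.313% in diffuse cells (SD, n = 3 each), and the intron that skips the exon fell by 4.04 points of its cluster's reads (edgeR diffSpliceDGE adjusted p = 0.000489 for the cluster). The length of 140 is not a multiple of 3, and the 6 GENCODE transcripts that skip the exon are all annotated as nonsense-mediated decay or retained intron, while 3 of the 4 that hold it are protein coding.

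In EIF4H, a 60-base exon at chr7:74190247-74190306 (plus strand), which separates a pair of protein-coding isoforms, was included at 16.9, 16.6 and 18.2% in aggregate cells and 24.4, 24.2 and 23.4% in diffuse cells. All aggregate libraries were lower (mean 17.2 ± 0.883% in aggregate cells and 24.01 ± 0.577% in diffuse cells, cluster adjusted p = 0.00486 from diffSpliceDGE). In EIF4G2, a 114-base exon at chr11:10801661-10801774 (minus strand) was included at 91.8, 92.7 and 91.4% in aggregate cells and 89.03, 88.9 and 89.3% in diffuse cells, a rise of 2.88 points (cluster adjusted p = 0.00373), and the call was lost without aggregate library 2 (adjusted p = 0.0698). In EIF2B3, a 67-base exon at chr1:44969978-44970044 (minus strand), found only in transcripts annotated as nonsense-mediated decay or processed transcript, was included at 0.233, 0.395 and 0.147% in aggregate cells and 3.23, 1.81 and 2.97% in diffuse cells. These rest on 0 to 3 reads an intron in aggregate libraries and 4 to 11 in diffuse libraries (cluster adjusted p = 0.0148), and the call was lost without any 1 of the 3 aggregate libraries or without diffuse library 3 (adjusted p = 0.0568 to 0.171). The 4 exons are shown because, among the skipped exons read in the called clusters, their inclusion moved the most, in lower case with the first and last 3 bases, next to the splice sites, in capitals. None holds GTGTG, a form of the repeat that TDP-43 is known to bind, but the introns beside them were not searched.
EIF4A2: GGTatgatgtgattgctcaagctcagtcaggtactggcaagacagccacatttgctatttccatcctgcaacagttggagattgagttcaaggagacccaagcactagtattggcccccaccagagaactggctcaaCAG
EIF4H: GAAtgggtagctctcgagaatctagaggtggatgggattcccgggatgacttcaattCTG
EIF4G2: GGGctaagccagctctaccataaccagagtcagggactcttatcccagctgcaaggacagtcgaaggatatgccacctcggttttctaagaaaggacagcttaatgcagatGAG
EIF2B3: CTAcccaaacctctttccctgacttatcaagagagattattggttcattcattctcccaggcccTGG

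**Figure D5:**
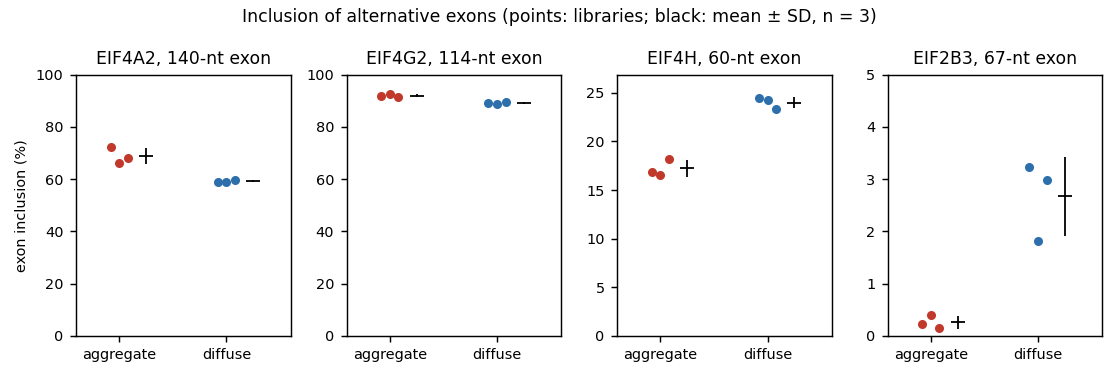
Inclusion (vertical axes, percent, each panel with its own range from 0) of the alternative exons of EIF4A2, EIF4G2, EIF4H and EIF2B3, with 1 point per library and black marks for the mean ± SD, n = 3. Aggregate cells included the EIF4A2 and EIF4G2 exons more and the EIF4H and EIF2B3 exons less, with no overlap in any of the 4.

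The other called clusters, in EIF3I, EIF1, EIF4A1, EIF3B, EIF3L, EIF3C and EIF5B and a second in EIF4A2, moved no intron by more than 2.51 points. In EIF1, for instance, a 164-base exon at chr17:41689778-41689941 (plus strand) was included at 99.5, 99.6 and 99.4% in aggregate cells and 98.9, 98.5 and 98.8% in diffuse cells (cluster adjusted p = 0.000111 from diffSpliceDGE). The EIF4A1 cluster also belongs to a read-through gene, SENP3-EIF4A1. Several of these calls were lost when a library was left out. Such fits also called fewer clusters over all, 1171 to 1318 in place of 1802. The second EIF4A2 cluster lost its call without aggregate library 3, diffuse library 2 or diffuse library 3 (diffSpliceDGE adjusted p = 0.0807 to 0.144). The EIF3C cluster kept its call only without aggregate library 2 and lost it without any 1 of the other 5 libraries (adjusted p = 0.082 to 0.213). The EIF5B cluster lost its call without aggregate library 1, aggregate library 2, diffuse library 2 or diffuse library 3 (adjusted p = 0.164 to 0.291). The EIF3L cluster lost its call without aggregate library 2, diffuse library 1 or diffuse library 2 (adjusted p = 0.0864 to 0.180).

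The promoters of the members were searched for motifs of stress and growth regulators on both strands. RefSeq windows of 300 bases were used, from 250 before to 50 after a gene start (GRCh38.p14), 63 windows of 47 member genes. CACGTG, the E-box bound by MYC and TFEB among others, was in 12 member windows, or 19.05%, and in 7.26% of all 35116 windows. TGACNNNGC, a form of the antioxidant response element, was in 14 member windows, or 22.22%, against 13.35% of all windows. TGATGNAAN, a form of the element bound by ATF4 and CEBP proteins, was in 1 member window, that of EIF4E3, or 1.59%, against 3.61% of all. Of the 12 member genes with CACGTG, 8 rose and 1 fell, and of the 12 with TGACNNNGC, 8 rose and 2 fell. Over all tested members 70.4% rose. EIF4E1B, among the 12 with TGACNNNGC, was not tested for expression. Whether either motif goes with a rise was not tested. The comparison with all windows includes genes that were not tested here. A match describes letters only, and a CACGTG and a TGACNNNGC can overlap, as they do in EIF4G1. The windows of EIF4G1 (chr3:184314356-184314655, plus strand), EIF3K (chr19:38618938-38619237, plus strand) and EIF4A3 (chr17:80147079-80147378, minus strand), which rose, and EIF4EBP2 (chr10:70403895-70404194, plus strand), which fell, are shown as examples from different classes, with motif matches in capitals.
EIF4G1: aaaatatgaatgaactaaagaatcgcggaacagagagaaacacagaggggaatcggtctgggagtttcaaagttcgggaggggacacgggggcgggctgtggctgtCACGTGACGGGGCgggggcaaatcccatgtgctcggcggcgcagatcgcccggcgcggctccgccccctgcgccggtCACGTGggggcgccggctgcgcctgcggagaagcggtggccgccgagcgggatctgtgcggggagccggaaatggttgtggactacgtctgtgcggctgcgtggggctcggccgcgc
EIF3K: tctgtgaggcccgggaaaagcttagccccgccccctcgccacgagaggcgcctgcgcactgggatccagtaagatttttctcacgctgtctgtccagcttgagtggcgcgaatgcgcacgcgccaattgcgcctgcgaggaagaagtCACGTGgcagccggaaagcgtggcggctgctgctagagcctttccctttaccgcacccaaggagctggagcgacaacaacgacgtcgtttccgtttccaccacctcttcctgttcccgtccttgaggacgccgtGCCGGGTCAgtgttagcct
EIF4A3: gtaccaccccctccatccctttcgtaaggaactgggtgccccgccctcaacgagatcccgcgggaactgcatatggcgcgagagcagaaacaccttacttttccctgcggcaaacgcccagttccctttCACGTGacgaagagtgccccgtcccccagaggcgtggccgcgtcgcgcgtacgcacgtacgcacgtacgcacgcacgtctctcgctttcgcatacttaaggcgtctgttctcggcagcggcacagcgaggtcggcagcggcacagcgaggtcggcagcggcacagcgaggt
EIF4EBP2: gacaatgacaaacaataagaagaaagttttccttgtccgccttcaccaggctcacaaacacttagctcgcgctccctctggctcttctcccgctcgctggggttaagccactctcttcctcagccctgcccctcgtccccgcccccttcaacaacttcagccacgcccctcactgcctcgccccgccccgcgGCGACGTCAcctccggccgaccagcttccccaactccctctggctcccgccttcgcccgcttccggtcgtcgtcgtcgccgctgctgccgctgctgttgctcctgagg

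Other genes of the translation pathway were read from lists of known regulators and later factors. Of 44 regulators of initiation, 26 rose, 9 fell and 9 did not pass, with a median log2 fold change of 0.20. BZW2, which mimics eIF5, had 121, 117 and 119 CPM in aggregate cells and 51.4, 48.7 and 51.9 CPM in diffuse cells (1.23 ± 0.04, edgeR adjusted p = 4.74e-49). MCTS1, a recycling and reinitiation factor, rose by 0.86. RPS6KB1, the mTOR-dependent S6 kinase that phosphorylates eIF4B, had 63.9, 61.4 and 64.5 CPM in aggregate cells and 102, 107 and 106 CPM in diffuse cells (-0.73 ± 0.04, adjusted p = 1.09e-32). PPP1CC, a catalytic subunit of the phosphatase that can dephosphorylate eIF2, fell as well (-0.68).

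Of 19 elongation and termination genes, 18 rose and 1, GTPBP1, did not pass (edgeR adjusted p = 0.051), with a median of 0.47. GTPBP1 passed as lower, 1 gene of the list in place of 0, with RLE scaling and without aggregate library 2 or diffuse library 2. The largest rises were in EEF2KMT, a methyltransferase of the elongation factor eEF2, at 14.7, 17.04 and 14.7 CPM in aggregate cells and 8.52, 7.12 and 6.75 CPM in diffuse cells, and DPH1, which starts the diphthamide modification of eEF2, at 20.02, 20.9 and 18.3 CPM in aggregate cells and 10.2, 10.05 and 9.91 CPM in diffuse cells. Of 9 mitochondrial translation factors, 8 rose and 1, the release factor MTRF1L, fell (-0.22, not called against a minimum fold of 1.2). Among them MTFMT, which formylates the mitochondrial initiator transfer RNA, led with a log2 fold change of 0.89. The lists are read against the same background of 37.8% of genes called higher and 37.6% called lower.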

How the data were processed

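RNA was measured by polyA-selected, stranded sequencing in 6 libraries, 3 per group, each group from separate transfections; the series design calls these independent biological replicates. The tools named are STAR 2.7.11a and fastp 0.23.2 with hg38, per the submitters' processing notes, and no gene counter or strand setting is given. The authors deposited whole-number counts per gene and spliced-read counts per intron from LeafCutter, neither normalized. From these, edgeR 4.0.16 (R 4.3.3) was run on the whole gene table (filterByExpr, TMM scaling, robust quasi-likelihood F test, Benjamini-Hochberg threshold 0.05), and diffSpliceDGE on introns with at least 10 counts over all libraries in clusters of at least 10 counts in each. The fits were run on simulated counts of the form that they assume, which checks the code and not the results. CPM values are TMM-scaled. Length scaling and transcript types use GENCODE 29. Exon length covers all annotated exons of a gene, whichever isoforms were present, and the paralog shares depend on it. DESeq2 1.42.0 and mgcv 1.9.3 (GC and length offset) served alternatives. The members and lists were chosen with earlier results of these data known. Named with values are all called members of the eIF2 kinase, eIF2B and 4E-binding classes, at least the 3 most changed of each other class, and every member that did not pass.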

Additional observations from a re-analysis of the deposited data

How the results depend on the processing

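The counts of members called and their median kept their direction under other scalings (RLE, upper quartile, library totals), other filters, DESeq2, a replicate block, a GC and length offset and the loss of any 1 library: 36 to 43 members rose, 6 to 8 fell, and the median log2 fold change was 0.36 to 0.44. Against a minimum fold of 1.2, 31 rose and 3 fell, EIF4A2, EIF4EBP2 and EIF4ENIF1, and 11 members lost their call. With the cluster F test, 22 splicing clusters of members were called in place of 12, and over all clusters 2721 in place of 1802. Leaving out 1 library gave 8 to 13 member clusters and 1171 to 1318 over all. After group means were taken out, aggregate and diffuse libraries of the same replicate number had correlations of 0.036, 0.083 and 0.060, each the highest for its number. Those between different numbers were -0.060 to -0.0020. These small values do not settle whether the numbers pair the transfections. The replicate block gave 38 up, 7 down and 12 clusters. It also called GTPBP1 lower, the 1 such call among the elongation and termination genes. Several members near 0 changed sign: with upper-quartile scaling EIF1 was 0.0383, EIF2S1 0.043, EIF2AK1 0.0134, EIF4E 0.00567, EIF4EBP3 0.0208 and EIF5A2 0.0356; with library totals EIF1 was 0.00311, EIF2S1 0.00783 and EIF5A2 0.00061; with a mean of at least 5 CPM EIF1 was 0.00855, EIF2S1 0.0133 and EIF5A2 0.00598. With the GC and length offset EIF2S1 was 0.11, EIF5B 0.0287, EIF2AK1 0.0288, EIF2AK2 0.0721, EIF4E 0.15 and EIF5A2 0.13, and of these EIF2S1, EIF2AK2, EIF4E and EIF5A2 were called higher; the cause was not tested. Leaving out 1 library in turn, EIF1 ranged over -0.031 to 0.0096, EIF2S1 over -0.024 to 0.016, EIF4E2 over -0.023 to 0.032, EIF4EBP3 over -0.12 to 0.049 and EIF5A2 over -0.045 to 0.012. Depth limits EIF2S3B, EIF3CL and the EIF2B3 exon, which rest on few reads.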
